A study of Arabidopsis thaliana with 6 samples.

Results

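The GDSL lipase-like cluster of chromosome 1 of Arabidopsis thaliana consists of 4 neighbouring genes, GLL22 (AT1G54000), GLL23 (AT1G54010), AT1G54020 and MVP1 (AT1G54030). They are 4 of the 20754 genes of the deposited table, and they were chosen by gene identifier because their transcripts were already known to be high in *fer* in these libraries. Their levels in *fer* against WT are therefore described here without a test. The mutant was *fer*, that is *fer-4*, a T-DNA insertion allele of the receptor kinase gene FERONIA (FER) in the Columbia-0 background, and the controls were WT Columbia-0. Each genotype had 3 libraries of rosette leaves. Per the labels all plants spent 10 days on plates under constant light and 21 days on soil with 8 h of light a day and were 4 weeks old, whereas the study's methods describe long days and plants collected somewhat later, differences that the files do not settle. No treatment was given. The mutant is a single allele with stunted growth, and no rescued line was among the libraries.

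FER itself gave 5.95, 6.63 and 10.3 normalized reads in the *fer* libraries, against 264.6, 265.5 and 286.4 in the WT libraries, a log2 fold change of -5.02 ± 0.22 (SE, adjusted p 7.2e-12 by limma with Benjamini-Hochberg adjustment). The authors had scaled all libraries alike, and their totals were 4523902 to 4526129 normalized reads. Transcripts of 4 rosette leaf markers (RBCS1A, RCA, LHCB1.3 and CA1) summed to 105479 to 114468 in *fer* and 139582 to 144003 in WT. Of 4 root hair markers, EXPA7 and RHD2 were in the table and summed to 0.949 to 6.36 in *fer* and 1.01 to 2.41 in WT. Of 4 flower markers, PI and AG were in the table and summed to 1.90 to 7.27 in *fer* and 3.23 to 5.03 in WT. Whether these marker levels have a part in the results was not tested, and in whole leaves fewer cells of a type and less RNA per cell cannot be told apart. Over all 20754 genes the median log2 fold change was 0.10, so that the libraries were not quite level, and it was 0.01 under median of ratios scaling and -0.04 under quantile normalization.

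GDSL proteins are a large plant family of esterases and lipases, named after a short block of residues around the serine of the active site. In Brassicaceae, several GDSL lipase-like proteins belong to the defence system built on the ER body, a compartment of the endoplasmic reticulum filled with beta-glucosidases such as PYK10. When cells are damaged, PYK10 aggregates with jacalin-related lectins and GDSL lipase-like proteins into the PYK10 complex, and the beta-glucosidases can cleave glucosinolates. GLL22 and GLL23 are known as proteins of the PYK10 complex. MVP1 (MODIFIED VACUOLE PHENOTYPE1) is known for keeping the endomembrane system of the cell in order. AT1G54020 has no gene symbol in the annotation used here.

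The cluster covered 15531 bases of chromosome 1 (chr1:20154154-20169684, TAIR10.1), and no gene other than the 4 was annotated inside it. GLL22 lay at chr1:20154154-20156520, GLL23 at chr1:20158589-20160864 and AT1G54020 at chr1:20161555-20163750, all on the minus strand. MVP1 lay at chr1:20167597-20169684 on the plus strand. The gaps between neighbours were 2068 bases (GLL22 to GLL23), 690 bases (GLL23 to AT1G54020) and 3846 bases (AT1G54020 to MVP1). The annotated proteins had 391 residues in GLL22, 386 in GLL23, 372 in AT1G54020 and 417 in MVP1. Their transcripts had 4 exons in GLL22 and GLL23 and 5 exons in AT1G54020 and MVP1. The annotation holds 5 transcripts of AT1G54020, 2 of MVP1 and 1 each of GLL22 and GLL23, and the one with the longest coding sequence is described.

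GLL22 and GLL23 were close copies, with 92.3% identical bases in the aligned coding sequence. AT1G54020 was identical to GLL22 at 74.4% and to GLL23 at 75.2% of aligned coding bases. MVP1 stood apart, with 56.2% to 56.8% identity to the other three. ESM1 (AT3G14210, EPITHIOSPECIFIER MODIFIER1, which shifts glucosinolate breakdown towards isothiocyanates) lies on chromosome 3, and its coding sequence was nearer to GLL22 (72.6%), GLL23 (74.5%) and AT1G54020 (73.9%) than MVP1 was. The coding sequence around the GDSL block is shown for the 4 genes and ESM1, because it holds the serine codon that gives the family its name and shows where MVP1 differs. Each run is 48 bases of exon 1, read 5′ to 3′ on the strand of the gene, with the 4 codons of the block in capitals. The runs lie at chr1:20156216-20156263 (GLL22, minus), chr1:20160598-20160645 (GLL23, minus), chr1:20163566-20163613 (AT1G54020, minus), chr1:20167835-20167882 (MVP1, plus) and chr3:4729988-4730035 (ESM1, plus), all in TAIR10.1.
GLL22: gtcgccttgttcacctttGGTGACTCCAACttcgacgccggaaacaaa
GLL23: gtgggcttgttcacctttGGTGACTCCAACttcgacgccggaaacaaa
AT1G54020: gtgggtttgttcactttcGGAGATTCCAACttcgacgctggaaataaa
MVP1: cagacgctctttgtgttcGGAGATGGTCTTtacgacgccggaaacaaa
ESM1: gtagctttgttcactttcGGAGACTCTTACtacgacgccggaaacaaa
The third codon of the block encoded serine in GLL22 (codon 43), GLL23 (codon 43), AT1G54020 (codon 40) and ESM1 (codon 43), and glycine in MVP1 (codon 59). The fourth codon encoded asparagine in GLL22, GLL23 and AT1G54020, leucine in MVP1 and tyrosine in ESM1.

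All 4 genes were higher in *fer* leaves than in WT leaves, by 3.30-fold to 60.0-fold in the ratio of means, and in none did the genotypes overlap. Over the whole table, 20.8% of genes had every *fer* library above every WT library. Since the genes were chosen for this difference, nothing is read from the count. Values are normalized reads, and because the method gives 1 fragment from the 3′ end of each transcript, levels of different genes are compared as they are, without division by length.

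AT1G54020 had 1043, 794.4 and 845.6 normalized reads in the *fer* libraries, against 22.2, 13.1 and 9.42 in the WT libraries. All *fer* libraries were high and all WT libraries were low, with the lowest *fer* library 35.8-fold above the highest WT library. The means were 894.3 ± 131.3 in *fer* and 14.9 ± 6.56 in WT (SD, n = 3 each), a ratio of 60.0. On the log2(value + 1) scale the difference was 5.88 ± 0.21 (SE), which ranked 5 among the log2 fold changes of all 20754 genes, counted from the largest increase. By level, the gene ranked 726 of 20754 in *fer* (top 3.50%) and 14475 in WT (top 69.7%).

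GLL23, a protein of the PYK10 complex, had 950.5, 1025 and 885.6 normalized reads in *fer*, against 135.2, 83.5 and 67.3 in WT. It was the most abundant transcript of the cluster in WT by mean, and the *fer* libraries were close to each other. The means were 953.6 ± 69.6 in *fer* and 95.3 ± 35.5 in WT (SD, n = 3 each), a ratio of 10.0 and a log2 fold change of 3.37 ± 0.17 (SE). Its rank by level was 676 in *fer* and 6169 in WT.

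MVP1 had 228.3, 229.0 and 201.9 normalized reads in *fer*, against 83.0, 60.4 and 56.2 in WT. Its *fer* libraries were high and nearly alike, and its WT libraries were the least scattered of the 4 genes, with a coefficient of variation of 21.7%. The means were 219.7 ± 15.5 in *fer* and 66.5 ± 14.4 in WT (SD, n = 3 each), a ratio of 3.30 and a log2 fold change of 1.73 ± 0.16 (SE), the smallest of the cluster. Its rank by level was 3240 in *fer* and 7927 in WT.

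GLL22, the near copy of GLL23, had 39.0, 28.4 and 41.3 normalized reads in *fer*, against 14.4, 6.05 and 3.00 in WT. It was the lowest gene of the cluster in every library, and the genotypes came closest to each other here, with the lowest *fer* library 1.97-fold above the highest WT library. The means were 36.3 ± 6.86 in *fer* and 7.83 ± 5.91 in WT (SD, n = 3 each), a ratio of 4.63 and a log2 fold change of 2.28 ± 0.42 (SE). The coefficient of variation was 18.9% in *fer* and 75.5% in WT, the widest spread of the cluster in both genotypes.

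**Figure D1:**
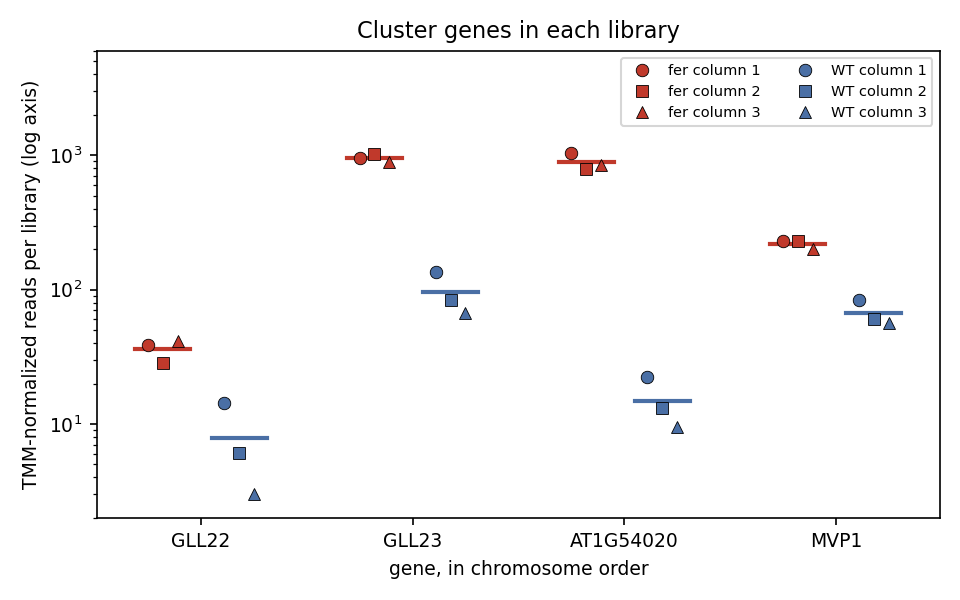
Normalized reads of GLL22, GLL23, AT1G54020 and MVP1 (log axis) in each of the 3 *fer* and 3 WT libraries, with a bar at each genotype's mean. The *fer* points lie above all WT points for each gene, with the widest gap in AT1G54020 (894.3 against 14.9 in the means), and WT column 1 is the highest WT point in all 4 genes.

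WT column 1 was the highest of the WT libraries for all 4 genes, by 4.80-fold over the lowest WT library for GLL22, 2.35-fold for AT1G54020, 2.01-fold for GLL23 and 1.48-fold for MVP1. Among the 16036 genes whose mean reached 10, 35.7% were highest in that library. It was also the highest WT library for 15 of 16 genes of the ER body list described further on, and for 7 of the 20 genes that flank the cluster. Without it, the ratio of means was 8.01 for GLL22, 12.6 for GLL23, 79.4 for AT1G54020 and 3.77 for MVP1, so that of the 4 only the value of GLL22 moved by more than 1.5 times. In *fer* the highest library exceeded the lowest by 1.13-fold (MVP1) to 1.45-fold (GLL22), and no *fer* library was the highest for all 4 genes.

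The order of the 4 transcripts differed between the genotypes. In *fer*, GLL23 and AT1G54020 were at like levels, since the ranges over their libraries overlapped, and both stood above MVP1, which stood above GLL22. In WT, GLL23 and MVP1 were the upper pair. Their ranges overlapped, although GLL23 exceeded MVP1 in each library, and AT1G54020 and GLL22 formed a lower pair whose ranges overlapped as well.

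Together the 4 genes gave 2261, 2077 and 1974 normalized reads in *fer*, against 254.8, 163.1 and 135.9 in WT, an 11.4-fold ratio of means. This was 0.0436% to 0.04996% of a *fer* library and 0.0030% to 0.0056% of a WT library. Within these sums AT1G54020 took 42.4% on average in *fer* and 7.89% in WT, and MVP1 took 10.5% in *fer* and 37.0% in WT. GLL23 took 45.4% in *fer* and 51.3% in WT, and GLL22 took 1.73% in *fer* and 3.86% in WT. The number of AT1G54020 reads per GLL23 read was 1.10, 0.775 and 0.955 in the *fer* libraries and 0.164, 0.157 and 0.140 in the WT libraries. Scaling between libraries cancels in this ratio, and its values did not overlap between the genotypes. The ratio is built from the values for which the genes were chosen, so nothing is read from overlap or its lack here or in the ratios that follow. The number of GLL23 reads per MVP1 read was 4.16, 4.47 and 4.39 in *fer* and 1.63, 1.38 and 1.20 in WT, again without overlap. The number of GLL23 reads per GLL22 read was 24.4, 36.0 and 21.4 in *fer* and 9.37, 13.8 and 22.4 in WT, where the genotypes did overlap.

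**Figure D2:**
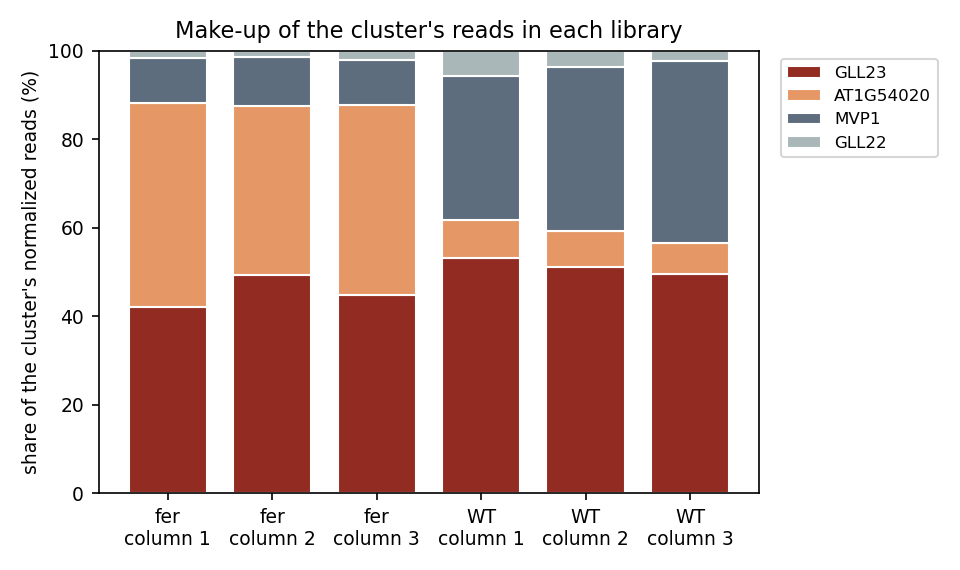
Share of the cluster's normalized reads (percent) held by each gene, 1 stacked bar for each of the 3 *fer* and 3 WT libraries. AT1G54020 fills 38.3% to 46.1% of the *fer* bars and 6.93% to 8.70% of the WT bars, and MVP1 fills at most 11.0% of each *fer* bar and 32.6% to 41.3% of the WT bars.

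How reads divide between GLL22 and GLL23 is uncertain. Reads were 50 bases long and came from the 3′ ends, and the study allowed a relaxed number of mismatches. Of 451 windows of 50 bases in the last 500 transcript bases of GLL23, 118 (26.2%) lay within 5 mismatches of another cluster gene, mostly GLL22, and 20 (4.43%) of those of GLL22 did. No window of AT1G54020 or MVP1 did, with at least 7 mismatches for AT1G54020 and at least 16 for MVP1. Near matches to genes outside the cluster, ESM1 among them, were not looked for. An exact match elsewhere in the genome was found for 18 windows of GLL22 (3.99%), 7 of AT1G54020 (1.55%) and 0 of GLL23 and MVP1. The limit of 5 mismatches was set here and does not measure how many reads were placed on the wrong gene. Windows were taken only from the longest annotated transcript of each gene. The fewest mismatches of any window to another cluster gene were 2 for GLL23 and 3 for GLL22. The part that shared reads have in the GLL22 and GLL23 values was not tested.

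The 250 bases before the annotated start of each gene were read from TAIR10.1 for the motifs of basic helix-loop-helix factors, the class of NAI1 and MYC2. The G-box (CACGTG) and the wider E-box (CANNTG, which includes the G-box) were searched on both strands. None of the 4 promoters held a G-box, which 6.49% of all 27443 protein-coding promoters held, and only that of GLL23 held an E-box, which 55.3% held. The promoters of GLL23 and AT1G54020 are shown because these are the most abundant transcripts of the cluster in *fer* and adjacent genes. They lie at chr1:20160865-20161114 and chr1:20163751-20164000 and are read 5′ to 3′ on the minus strand, with E-boxes in capitals.
GLL23: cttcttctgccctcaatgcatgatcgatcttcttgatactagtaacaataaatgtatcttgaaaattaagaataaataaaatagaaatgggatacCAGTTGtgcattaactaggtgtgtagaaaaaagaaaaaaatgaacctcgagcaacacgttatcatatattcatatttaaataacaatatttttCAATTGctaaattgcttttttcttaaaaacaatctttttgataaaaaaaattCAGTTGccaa
AT1G54020: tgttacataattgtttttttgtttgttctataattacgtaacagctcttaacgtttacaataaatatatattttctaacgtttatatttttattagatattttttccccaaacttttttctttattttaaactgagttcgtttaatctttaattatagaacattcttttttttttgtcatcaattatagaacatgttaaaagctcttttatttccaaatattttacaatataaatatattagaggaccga
The 3 E-boxes of GLL23 began 155, 62 and 10 bases before the annotated start. The GC content was 31.6% for GLL22, 26.8% for GLL23, 20.8% for AT1G54020 and 19.2% for MVP1. A match of letters is a description of the sequence, and the lack of one says only that the letters are not in this window.

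The genes around the cluster were compared between the genotypes to see how far along the chromosome a difference reached. Of 20 flanking genes, the 10 nearest in the table on either side, 1 was called at an adjusted p under 0.05 (limma, Benjamini-Hochberg), against 14.6% of all genes, with 10.0% called higher and 4.52% called lower in *fer* (2083 and 938 genes, or 1514 and 1441 under median of ratios scaling). At an unadjusted p under 0.05 (limma), 4 of the 20 were higher and 2 lower, against 3782 and 1832 of all 20754 genes. Under median of ratios scaling 0 of the 20 were called higher and 2 lower. The called gene, RAP2.12, an ethylene response factor known from oxygen sensing, averaged 350.9 ± 17.0 normalized reads in *fer* and 264.5 ± 21.3 in WT (SD, n = 3 each), a log2 fold change of 0.41 ± 0.10 (SE, adjusted p 0.011 by limma). Its adjusted p was 0.050 under median of ratios scaling and 0.13 without the trend of variance on mean. The median log2 fold change of the 20 genes was 0.25, against 0.10 over all genes.

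ESP (AT1G54040), the epithiospecifier protein that directs glucosinolate breakdown towards nitriles and epithionitriles, is the next gene after MVP1, with 1030 bases between the annotated genes. It gave 356.7, 298.1 and 376.8 normalized reads in *fer*, against 324.9, 238.4 and 245.3 in WT. The genotypes overlapped, and the log2 fold change was 0.36 ± 0.13 (SE, adjusted p 0.067 by limma). Without WT column 1 the adjusted p was 0.014 and without *fer* column 2 it was 0.034. AT1G54050, the next gene of the table after ESP, had a log2 fold change of 0.31 ± 0.16 (SE, adjusted p 0.22 by limma). On the other side, AT1G53980 and AT1G53970 averaged at most 1.66 normalized reads in either genotype, and their adjusted p were 0.42 and 0.37 (limma). Transcript levels of GLIP3, the GDSL gene next to GLL22 in the annotation, were not analysed here. GLIP5, a further GDSL lipase on that side, averaged 22.2 in *fer* and 18.7 in WT, with a log2 fold change of 0.28 ± 0.33 (SE, adjusted p 0.64 by limma). GLIP2, its neighbour, averaged 1.01 in *fer* and 1.49 in WT, with a log2 fold change of -0.26 ± 0.71 (SE, adjusted p 0.85 by limma).

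**Figure D3:**
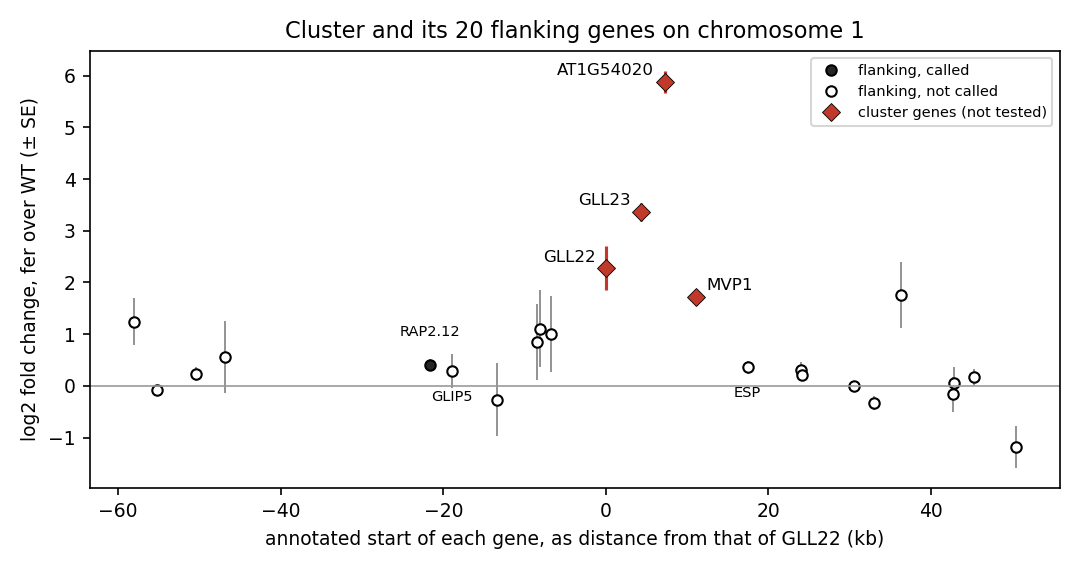
Log2 fold change of *fer* over WT (± SE) for the 4 cluster genes (red diamonds, not tested) and the 20 flanking genes (filled circle called, open circles not called), against the distance of each annotated start from that of GLL22 in kb. The cluster genes lie between 1.73 and 5.88, while the called neighbour RAP2.12 is at 0.41 and ESP, next to MVP1, at 0.36.

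The other GDSL genes of the genome were called in both directions. The annotation names 115 genes of the GDSL and related SGNH family. Of the 65 in the table, 61 lie outside the cluster, and of these 17 (27.9%) were called, against 14.6% of all genes. In *fer*, 8 (13.1%) were higher, against 10.0% of all genes, and 9 (14.8%) were lower, against 4.52% of all genes. Their median log2 fold change was 0.06, against 0.10 over all genes. Under quantile normalization 5 of the 61 were called higher and 10 lower, against 1353 and 1450 of all 20754 genes.

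Among called genes whose mean reached 10 in *fer* or WT, the increase was largest in CDEF1, a cutinase-like esterase, with 55.5, 55.8 and 66.2 normalized reads in *fer*, against 19.3, 19.1 and 10.5 in WT. Its log2 fold change was 1.84 ± 0.27 (SE, adjusted p 9.4e-05 by limma). AT2G03980 rose by 1.76 ± 0.13 (440.2 in *fer*, 130.8 in WT), AT1G31550 by 1.55 ± 0.17 (279.9 in *fer*, 97.5 in WT), AT1G28580 by 1.20 ± 0.17 and AT5G55050 by 1.15 ± 0.24 on the log2 scale (SE). These 4 carry no gene symbol and no role is given for them. AT1G20130 was called at lower levels, with 5.09 in *fer* and 0.491 in WT and a log2 fold change of 2.10 ± 0.61 (SE), a value that depends on the pseudocount at such low levels.

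The decreases outside the cluster were led by AT1G09390, which averaged 27.1 in *fer* and 55.6 in WT, with a log2 fold change of -0.997 ± 0.26 (SE, adjusted p 0.013 by limma). AT4G18970 (-0.93 ± 0.13) and AT5G45670 (-0.74 ± 0.10) were also lower in *fer* (log2 fold change ± SE). AT3G48460 (-0.82 ± 0.21) and AT4G26790 (-0.79 ± 0.21) were called lower as well. The calls of AT1G09390, AT3G48460 and AT4G26790 were lost when single libraries were left out. The adjusted p of AT1G09390 by limma was 0.063 without WT column 1, 0.10 without WT column 2 and 0.058 without *fer* column 2. That of AT3G48460 was 0.057 without WT column 2, 0.065 without WT column 3 and 0.051 without *fer* column 2. For AT4G26790 it was 0.065 without WT column 1, 0.052 without WT column 3 and 0.056 without *fer* column 3. Without the trend of variance on mean it was 0.096 for AT1G09390 and 0.14 for AT3G48460.

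ESM1, the nearest relative of GLL22, GLL23 and AT1G54020 outside the cluster by coding sequence, was the most abundant GDSL transcript in both genotypes and was lower in *fer*. It had 4732, 3963 and 4747 normalized reads in *fer*, against 6935, 6775 and 6461 in WT, with no overlap. The log2 fold change was -0.59 ± 0.08 (SE, adjusted p 2.6e-05 by limma). Without the trend of variance on mean the adjusted p of ESM1 by limma was 0.062. AT3G14220, a GDSL gene next to ESM1, had a log2 fold change of -0.07 ± 0.14 (SE, adjusted p 0.80 by limma). GLIP1, a secreted lipase known from defence against Alternaria, had a log2 fold change of 0.44 ± 0.78 (SE, adjusted p 0.77 by limma). On the log2(value + 1) scale, all 61 genes had log2 fold changes between -0.997 and 2.10. These lay below the values of GLL22 (2.28), GLL23 (3.37) and AT1G54020 (5.88) and on either side of that of MVP1 (1.73). In the ratio of means, AT1G53970 (1.66 in *fer*, 0.011 in WT) stood at 153.6, above AT1G54020 (60.0). AT1G20130 (5.09 in *fer*, 0.491 in WT) stood at 10.4, above GLL23 (10.0) and GLL22 (4.63). For such low genes the ranking depends on the pseudocount.

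**Figure D4:**
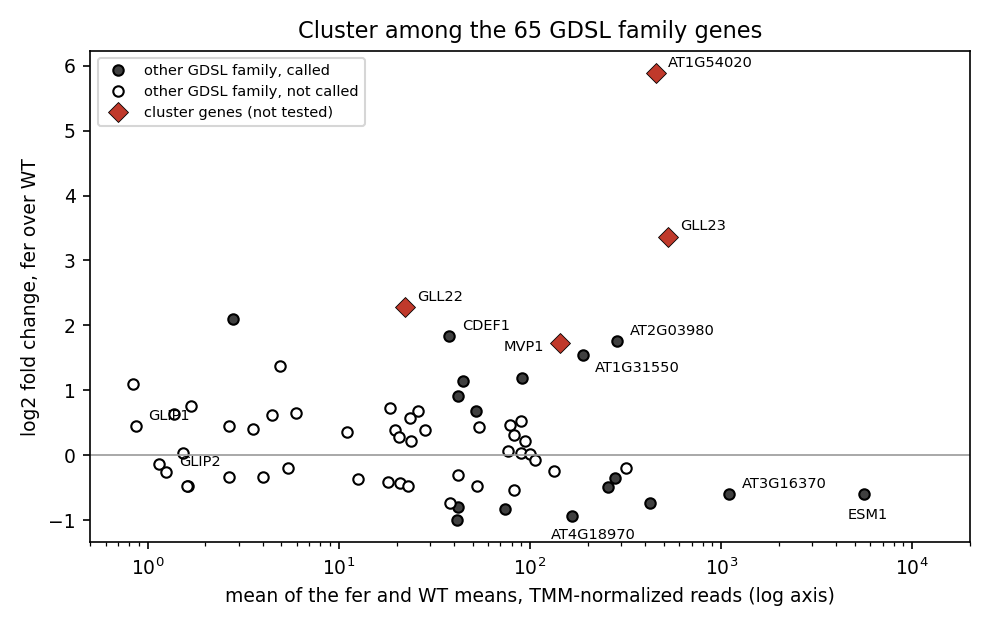
Log2 fold change of *fer* over WT against the mean of the *fer* and WT means (normalized reads, log axis) for the 4 cluster genes (red diamonds, not tested) and the other 61 GDSL family genes of the table (filled circles called, open circles not called). On this log2(value + 1) scale GLL22, GLL23 and AT1G54020 lie above all other family members, and ESM1, the most abundant member, lies at -0.59.

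Genes of the system in which GLL22 and GLL23 act were then set beside the cluster. The ER body and PYK10 complex list holds 16 genes without the cluster. It was compiled from background knowledge with results of these libraries known, and is therefore no independent evidence. Of the 16, 15 were called higher in *fer* and 0 lower (limma), against 10.0% and 4.52% of all genes. At an unadjusted p under 0.05 (limma) the counts were also 15 and 0, against 3782 and 1832 of all 20754 genes. The median log2 fold change of the list was 2.67. PYK10, the main beta-glucosidase of the ER body, had 2112, 2177 and 2178 normalized reads in *fer*, against 502.5, 399.4 and 312.3 in WT. Its genotypes lay well apart, with a log2 fold change of 2.44 ± 0.12 (SE, adjusted p 3.0e-11 by limma).

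The largest changes of the list were in JAL23 and JAL35, lectins of the jacalin-related family, in BGLU18, a beta-glucosidase, and in TSA1, a relative of the ER body protein NAI2. JAL23 averaged 8307 ± 421.2 in *fer* and 501.9 ± 128.8 in WT, with a log2 fold change of 4.08 ± 0.12 (SE). JAL35 (3.47 ± 0.15), BGLU18 (3.45 ± 0.19) and TSA1 (3.35 ± 0.15) had log2 fold changes close to the 3.37 of GLL23. NAI2, which is needed to form ER bodies, averaged 232.8 ± 21.9 in *fer* and 56.7 ± 12.6 in WT, with a log2 fold change of 2.04 ± 0.17 (SE). The gene that was not called was BGLU21, a close relative of PYK10, at 14.5 in *fer* and 11.4 in WT, with a log2 fold change of 0.26 ± 0.44 (SE, adjusted p 0.76 by limma). AT1G54020 thus had a larger log2 fold change than each of the 16 genes, GLL23 lay among the upper ones, and GLL22 and MVP1 lay below the median of the list.

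The myrosinase list has 8 genes of the classical glucosinolate breakdown system, of which 3 (37.5%) were called higher and 1 (12.5%) lower in *fer*, against 10.0% and 4.52% of all genes. The median log2 fold change was 0.26, against 0.10 over all genes. MBP1 (4.07 ± 0.15) and MBP2 (3.49 ± 0.10), which bind myrosinase, and NSP1 (2.43 ± 0.14), a nitrile specifier, were the higher genes by log2 fold change (SE). ESM1 was the lower one. The myrosinases themselves were not called. TGG1 had a log2 fold change of -0.23 ± 0.11 (SE, adjusted p 0.20 by limma), and TGG2 one of 0.16 ± 0.09 (SE, adjusted p 0.24 by limma). NSP5 had a value of 0.10 ± 0.09 (SE, adjusted p 0.51 by limma).

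Of the 4 basic helix-loop-helix factors, NAI1, which is needed for ER body formation, had 88.3, 79.1 and 67.9 normalized reads in *fer*, against 51.9, 26.2 and 25.1 in WT. Its libraries did not overlap between genotypes, WT column 1 was again the highest WT library, and the log2 fold change was 1.24 ± 0.25 (SE, adjusted p 0.0019 by limma). MYC2 (0.80 ± 0.13) and MYC3 (0.58 ± 0.11), regulators of jasmonate responses, were called higher as well (log2 fold change ± SE). MYC4, their close relative, was called lower at -0.43 ± 0.11 (SE, adjusted p 0.011 by limma). Its adjusted p by limma was 0.071 without WT column 3 and 0.063 without *fer* column 3. Without the trend of variance on mean none of the 4 was called, with adjusted p of 0.078 for NAI1, 0.11 for MYC2, 0.070 for MYC3 and 0.14 for MYC4 (limma).

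**Figure D5:**
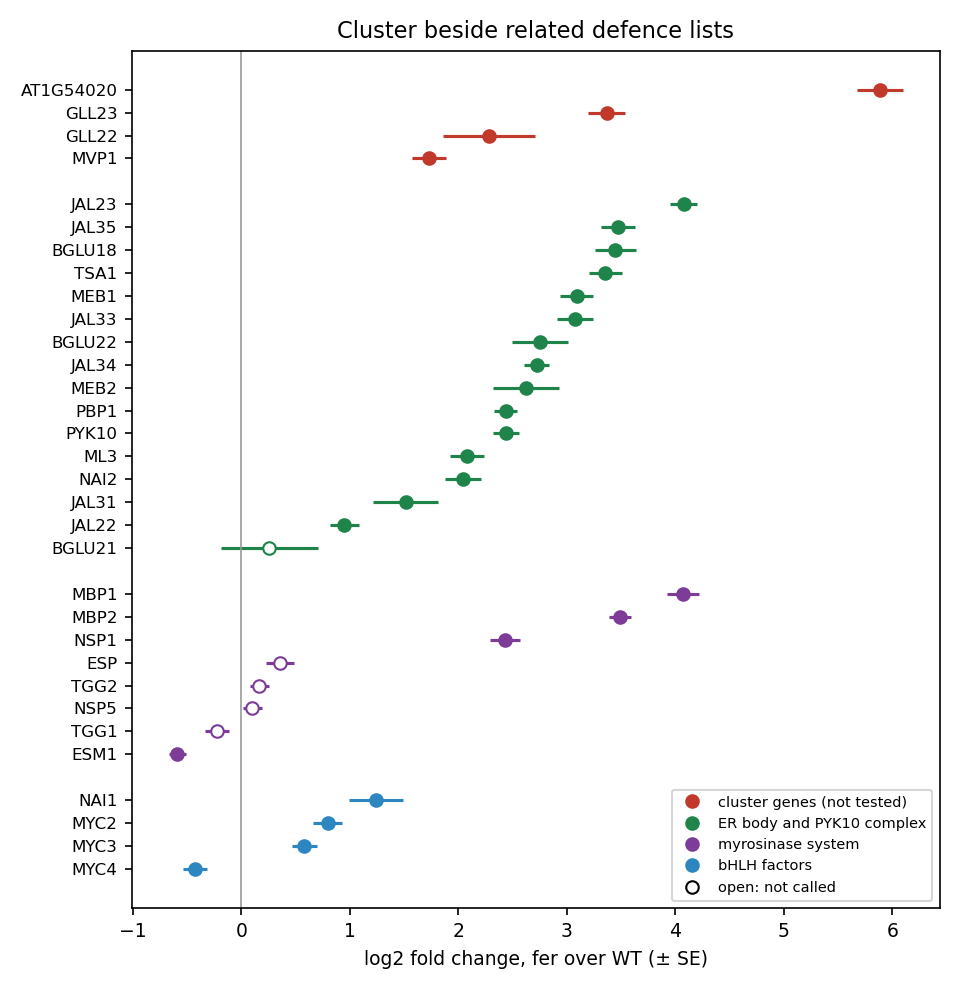
Log2 fold change of *fer* over WT (± SE) for the 4 cluster genes (red, not tested) and for the 16 ER body and PYK10 complex genes, 8 myrosinase system genes and 4 basic helix-loop-helix factors (filled circles called, open circles not called). AT1G54020 is the highest point at 5.88, GLL23 at 3.37 lies beside TSA1 and BGLU18, and ESM1 and MYC4 are the called genes below 0.

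The pattern over the 6 libraries was compared between each cluster gene and 16538 genes whose mean reached 10 in *fer* or WT, as the root mean square difference of log2 values centred on each gene's own mean. The points share their libraries, and the measure is a description. It includes the difference between the genotypes for which the cluster was chosen, so that genes near a member mostly share its log2 fold change. GLL23 was nearest to TSA1 (0.051) and JAL35 (0.053), both of the ER body list, and then to CSLA10, a cellulose synthase-like gene (0.13). AT1G54020 was nearest to AT1G75945, annotated as an uncharacterized protein (0.23), and to AT4G12500 and AT4G12490 (0.24 and 0.45), which encode proteins of the lipid transfer protein superfamily. MVP1 was nearest to IAR3 (0.098), an amidohydrolase of hormone conjugates, to AOC2 (0.10), an allene oxide cyclase of jasmonate synthesis, and to CLH1 (0.11), a chlorophyllase. GLL22 was nearest to HWI1 (0.17), annotated as related to receptor-like kinases, PR-1-LIKE (0.20) and the O-methyltransferase gene AT1G77520 (0.23). No cluster gene was among the 3 nearest genes of another. Their log2 fold changes (1.73, 2.28, 3.37 and 5.88) already set them apart in this measure, and nothing is read from it.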

How the data were processed

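Rosette leaves were profiled in 3 *fer* and 3 WT libraries by 3′ end sequencing, with 2 runs per library of 50-base reads merged. The labels name the libraries as replicates but not separate plants, so p-values measure the spread between these libraries. The authors aligned reads to TAIR10 with STAR, counted them per gene with HTSeq and normalized them with TMM. Tool versions and the strand setting are not given in the sources used here. The deposited table holds this TMM signal for 20754 genes. Its log2 fold change column, the authors' own comparison, was not used. Whole reads could not be recovered, since low values gather in steps that shift from gene to gene, so no count test was run. The study gives an average number of reads per sample and the share mapped, but the depth of each library is not known here. Columns carry the genotype but no replicate number and are called column 1, 2 and 3.

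Values were compared as log2(value + 1) with limma 3.58.1 in R 4.3.3 (eBayes with trend, two-sided), p-values were adjusted over all genes by Benjamini-Hochberg, and calls were made at an adjusted p under 0.05, after tests on simulated data. The pseudocount of 1 understates changes of low genes. Coordinates, sequences and family names come from RefSeq's annotation of TAIR10.1, in which all 20754 identifiers matched. The cluster and lists were chosen with earlier results of these data known. Named are the cluster genes, FER, the nearest 2 flanking genes on each side and any called one, the 5 highest and 5 lowest log2 fold changes among called GDSL genes whose mean reached 10 in *fer* or WT, GLIP1, GLIP2, GLIP3, GLIP5, ESM1, ESP, PYK10, NAI1 and NAI2, up to 4 called genes per list, genes against their list's median, and the 3 nearest patterns. AT1G20130, AT3G14220, BGLU21, TGG1, TGG2 and NSP5 lie outside this rule and were chosen after their values were seen. Of 4 seed markers looked up, 0 were among the genes analysed here. Alternatives were a pseudocount of 0.1, a mean of at least 5, other scalings, limma without trend, a threshold of 0.01 and leaving out each library.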

Additional observations from a re-analysis of the deposited data

How the results depend on the processing

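The values of the 4 cluster genes kept their direction under all alternatives run and moved by less than 1 SD between replicates. For the runs that left out a library this was fixed in advance, so nothing is read from it. The genotypes did not overlap, and leaving out 1 library cannot move a mean by 1 SD. Leaving out each library gave log2 fold changes of 1.82 to 2.79 for GLL22, 3.15 to 3.65 for GLL23, 5.62 to 6.20 for AT1G54020 and 1.62 to 1.90 for MVP1. No paired analysis was possible because no column names its replicate number. No counting error was worked out for the low WT values of GLL22 and AT1G54020, which went down to 3.00 and 9.42 normalized reads. The study gives only an average number of reads per sample, not the depth of each library. No called fold change that was recomputed turned its sign, while the flanking genes had calls only lower in *fer* under median of ratios scaling. Of the uncalled fold changes, GLIP1 was at -0.34 without *fer* column 2, and GLIP2 at 0.16 without *fer* column 1 and 0.05 without WT column 3. The cause of these changes and of those below was not tested.

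Over all genes, 1353 were higher under quantile normalization, 908 without the trend and 1190 at an adjusted p under 0.01, against 2083. Lower were 1441 under median of ratios scaling (with 1514 higher), 1450 under quantile normalization, 222 without the trend and 492 at 0.01, against 938. Leaving out each library gave 1287 (without *fer* column 3) to 1822 higher and 537 (without WT column 2) to 821 lower, with 620 lower without *fer* column 3. Of the flanking genes, 0 were higher under median of ratios scaling, without the trend and at 0.01, and 2 were lower under median of ratios scaling and quantile normalization. Leaving out each library gave 1 to 3 higher (3 without WT column 1, and 2 without WT column 2 or *fer* column 2) and 0 to 1 lower (1 without *fer* column 1). Of the other GDSL genes, 5 were higher under quantile normalization and at 0.01, and 3 were lower without the trend and 5 at 0.01. Leaving out each library gave 5 (without *fer* column 2) to 8 higher and 6 to 8 lower. The ER body count stayed at 15 higher and 0 lower under each alternative. Of the myrosinase genes, 3 to 5 were higher with a library left out (5 without *fer* column 2), and 0 were lower without the trend. Of the basic helix-loop-helix factors, 0 were higher without the trend, 0 were lower without the trend and at 0.01, and 0 to 1 were lower with a library left out (0 without WT column 3 or *fer* column 3).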

Other observations

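A further GDSL group of neighbouring identifiers on chromosome 1 also had members that were higher in *fer*, and was singled out after its values were seen. AT1G28580 (1.20 ± 0.17, adjusted p 4.4e-05) and AT1G28570 (0.92 ± 0.25, adjusted p 0.019) were called higher by limma with Benjamini-Hochberg adjustment (log2 fold change ± SE). The other members were not called, with values of 0.53 ± 0.19 for AT1G28600 (adjusted p 0.061), 0.32 ± 0.16 for AT1G28610 (adjusted p 0.19), 0.39 ± 0.31 for AT1G28660 (adjusted p 0.45) and 0.02 ± 0.16 for ARAB-1 (adjusted p 0.95, limma).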
